A study of Mus musculus with 6 samples.

Results

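The collagen chains of the mouse line TIBx were taken as every row of the count table named Col, a number, the letter a and a number, with at least 10 counts summed over the 6 libraries. Of 44 rows with such a name 23 met that minimum, out of 24054 genes in all, and 21 did not, 12 of them with no count at all. The 23 comprise 7 fibrillar chains, 3 basement membrane (type IV) chains and 13 other chains. The least counted members were Col6a3 with 10 summed counts and Col27a1 with 15, and the nearest rows outside were Col8a2 and Col11a2 with 9 each and Col4a3 with 7.

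TIBx carries the cell type label BNL 1ME A.7R.1 from liver, a chemically transformed line from embryonic liver of BALB/c mice. The 3 WT libraries are the parental line, and the 3 DNAJ-PKAc libraries are the line TIBxDNAJ-PKAc, whose genotype joins the start of the co-chaperone DNAJB1 to the protein kinase A catalytic subunit, the lesion of fibrolamellar carcinoma. Both lines were kept in DMEM with fetal bovine serum, antibiotics, HEPES and added glutamine, pyruvate and nonessential amino acids. Where 3 values of a group are given, they are replicates A, B and C in that order. Each genotype is a single line, so the fusion and any other difference between the lines cannot be told apart, and since no label says that replicates A to C were grown apart, each p-value reflects only how these libraries differed, which may be technical. No source used here says how the fusion was introduced or whether the line is a clone.

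Collagens are trimers of chains that each carry a long Gly-X-Y repeat. Fibrillar chains are secreted as procollagen, trimmed of their propeptides and cross-linked into fibrils, whereas type IV chains form the sheet-like network of basement membranes and further classes decorate fibrils, link them to cells or span the cell membrane. In liver, type I and type III fibrils are the bulk of scar tissue and are made mainly by stellate cells and other fibroblast-like cells, and fibrolamellar carcinoma is named for the bands of fibrous tissue that run through it.

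Library totals ran from 8095548 to 9969591 counts. The kinase gene Prkaca was at 63.6, 87.6 and 79.2 CPM (read counts relative to TMM-scaled library size) in WT against 131, 120 and 95.7 CPM in DNAJ-PKAc, without overlap (log2 difference 0.59, edgeR adjusted p = 0.154, or 0.0242 without DNAJ-PKAc C). Dnajb1, the other partner gene of the fusion, was at 70.9, 63.7 and 58.0 CPM in WT and 76.0, 72.2 and 44.4 CPM in DNAJ-PKAc (log2 difference 0.00, SE 0.23, edgeR adjusted p = 0.999). Pde4b, a cyclic AMP phosphodiesterase gene, had no count in WT and 13.1, 14.4 and 36.9 CPM in DNAJ-PKAc. Of 11 hepatocyte marker genes 9, among them Alb, Ttr and Hnf4a, had no count in any library, and the list summed to at most 0.560 CPM by plain library totals, which all sums over lists use. Hepatocyte markers were thus at or near 0 in a line labelled as liver. Of 11 stellate cell, fibroblast and smooth muscle markers Vim, Pdgfra, Pdgfrb, Dcn and Acta2 were expressed. Lrat, Reln and Thy1 had no count, and Des, Lum and Tagln had at most 5, 2 and 1 counts in any library. The lines thus express part of that list. The sum of the list, mostly Vim, ran from 12219 to 15356 CPM in WT and from 11869 to 13130 CPM in DNAJ-PKAc. The 5 endothelial markers summed to between 0.301 and 2.39 CPM, the 5 leukocyte markers to between 1.01 and 4.32 CPM, with Ptprc at 0, and the 5 cartilage and bone markers to at most 0.301 CPM. The 6 cholangiocyte markers, with Krt19, Epcam and Cftr at 0, summed to 848 to 2214 CPM in WT and 369 to 3047 CPM in DNAJ-PKAc, nearly all of it Spp1.

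DNAJ-PKAc C stood apart from DNAJ-PKAc A and B. A list of 10 proliferation genes, chosen with earlier results of these data known, summed to 2313, 2419 and 265 CPM in DNAJ-PKAc, against 565 to 711 CPM in WT. WT B also differed in its makeup, with the ribosomal precursor Rn45s at 2.66% of counts against 0.912% to 1.05% in the other libraries. The part of these differences in the collagen results was not tested, and values are given with and without these libraries.

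Together the collagen chains took 1.93%, 2.30% and 2.23% of all WT counts and 1.01%, 0.932% and 2.56% of all DNAJ-PKAc counts. DNAJ-PKAc A and B were below every WT library and DNAJ-PKAc C was above every WT library. Without Col1a2, an alternative added after the data were seen, DNAJ-PKAc C was at 14792 CPM, inside the WT range of 13243 to 15592 CPM. With all chains the group values were 21541 ± 1947 CPM in WT and 15007 ± 9151 CPM in DNAJ-PKAc (SD, n = 3, plain totals), so the spread within DNAJ-PKAc was larger than the difference between the groups. In bulk RNA, fewer cells that make collagen and less collagen RNA per cell cannot be told apart.

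Levels per length, as CPM per kb of the longest coding transcript, were led by Col1a2, the alpha-2 chain of type I collagen, at 1272 ± 196 CPM per kb in WT and 1112 ± 840 in DNAJ-PKAc (SD, n = 3). Col18a1, a basement membrane zone collagen whose C-terminal fragment is endostatin, followed at a mean of 696 CPM per kb over all libraries, and Col3a1, the single chain of type III collagen, at 646. Their order turned in WT, with means of 882 for Col3a1 and 864 for Col18a1, which differed by less than the spread between libraries. The type IV chains Col4a1 and Col4a2 came next at 245 and 112 CPM per kb. At the other end, the members that were not tested lay at or under 0.149 CPM per kb. Fibrillar chains made up 63.3%, 63.4% and 65.9% of the length-normalised collagen level in WT, 52.8% and 53.4% in DNAJ-PKAc A and B and 67.6% in C. Basement membrane chains made up 9.96% to 10.7% in WT and in the same order 18.3%, 17.8% and 9.96% in DNAJ-PKAc.

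**Figure D1:**
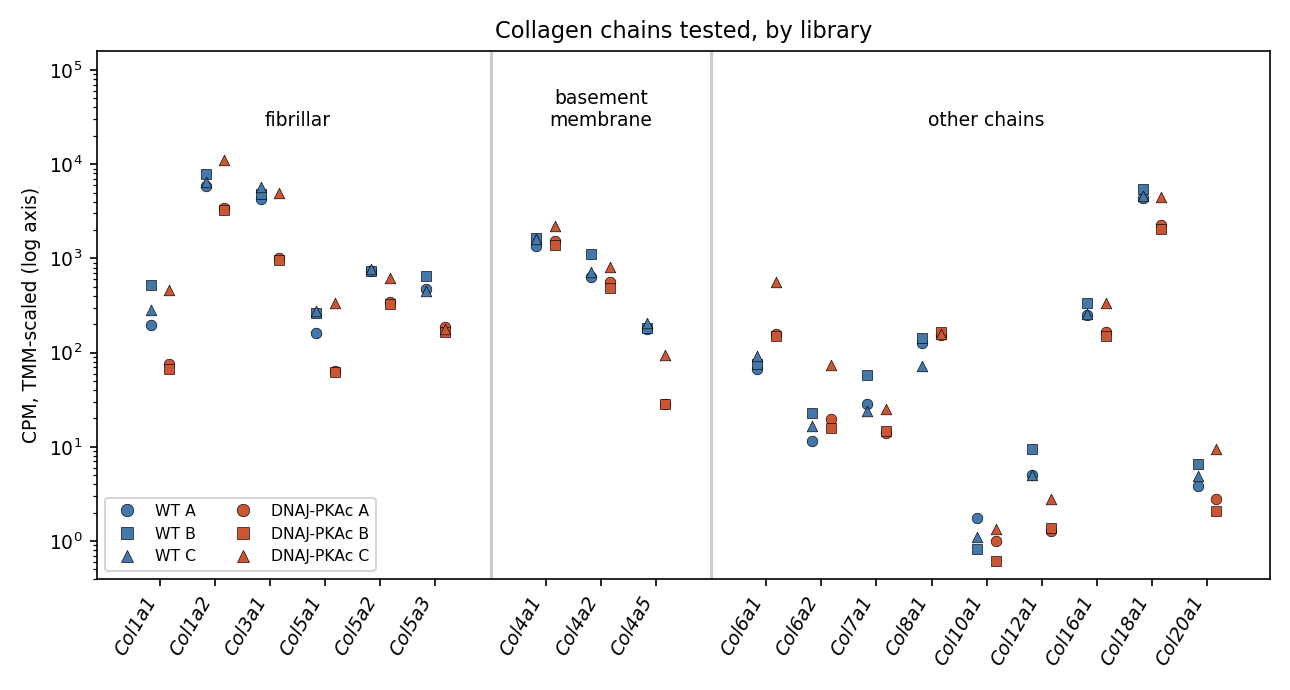
TMM-scaled CPM (log axis) of the 18 chains tested, by class, with WT libraries in blue and DNAJ-PKAc libraries in red and a marker shape for each replicate letter. DNAJ-PKAc A and B lie together in most chains, while C lies above both in 16 of the 18, and the 3 DNAJ-PKAc libraries fall together below WT for Col5a3.

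Of the 23 chains 18 had enough counts to be tested, 6 fibrillar, 3 basement membrane and 9 other. In the edgeR quasi-likelihood test over 10975 genes, with Benjamini-Hochberg adjusted p under 0.05, 0 chains rose and 1 fell, Col5a3, where 3.51% of all genes tested were called, 1.37% as higher and 2.14% as lower. At an unadjusted p under 0.05 there were 1 chain higher and 5 lower, where 21.5% of all genes passed, 1296 genes as higher and 1067 as lower. DESeq2 called 1 higher and 4 lower, where it called 8.88% of all genes, 3.17% as higher and 5.71% as lower. limma-voom called 0 higher and 1 lower, where it called 3.56% of all genes, 1.29% as higher and 2.27% as lower. With library quality weights limma-voom called 2 higher and 13 lower, where it called 46.2% of all genes, 25.1% as higher and 21.1% as lower. Of the 18, 14 had a log2 difference (DNAJ-PKAc minus WT) below 0, 77.8%, as did 46.1% of all genes tested, and the median was -0.51 against 0.05 over all genes. Groups did not overlap for 2 higher and 4 lower chains, where 15.8% of all genes tested were apart and higher, 13.1% apart and lower and 28.9% either, a share close to that of the chains. A chain could pass the count filter through the group where it was high, so these counts describe only the chains tested.

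Fibrillar chains are the structural core of collagen fibrils, and type V chains are built into type I fibrils and limit their width. Col5a3, the alpha-3 chain of type V collagen, fell 2.98-fold. Col5a3 (chromosome 9, 20770050 to 20815117, GRCm38.p6, the assembly of mm10) had WT levels of 468, 649 and 454 CPM and DNAJ-PKAc levels of 185, 166 and 176 CPM. All DNAJ-PKAc libraries, C included, lay below all WT libraries. The group values were 524 ± 108 CPM and 176 ± 9.81 CPM (SD, n = 3), with a log2 difference of -1.58 (SE 0.19, edgeR adjusted p = 0.0099). Without DNAJ-PKAc A or B the call was lost (edgeR adjusted p up to 0.0620), while the log2 difference stayed between -1.67 and -1.43 whichever library was left out.

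The sequence upstream of Col5a3, the chain that passed the test, is shown beside that of Col3a1, an abundant fibrillar chain whose DNAJ-PKAc libraries were split, the latter chosen after its values were seen. Both are given 5′ to 3′ on the gene's strand, from the RefSeq promoter table for GRCm38.p6, in which 19 of the 23 chains had an entry, and cut to the bases before any annotated exon (250 to 51 bases before the transcript start that the table uses for Col5a3, up to the outer end of the RefSeq gene, and 250 to 1 bases for Col3a1). Capitals mark matches on either strand to TATAAA (the TATA box), to CCAAT (bound by NF-Y), to GGGCGG (the GC box), to the cyclic AMP response element TGACGTCA, or to its shorter core TGACG, which every full element also holds.
Col5a3, chr9:20815118-20815317, minus strand: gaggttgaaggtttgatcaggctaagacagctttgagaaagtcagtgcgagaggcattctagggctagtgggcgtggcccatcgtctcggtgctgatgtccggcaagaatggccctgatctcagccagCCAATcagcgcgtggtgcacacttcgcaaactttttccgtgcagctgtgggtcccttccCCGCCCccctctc
Col3a1, chr1:45311288-45311537, plus strand: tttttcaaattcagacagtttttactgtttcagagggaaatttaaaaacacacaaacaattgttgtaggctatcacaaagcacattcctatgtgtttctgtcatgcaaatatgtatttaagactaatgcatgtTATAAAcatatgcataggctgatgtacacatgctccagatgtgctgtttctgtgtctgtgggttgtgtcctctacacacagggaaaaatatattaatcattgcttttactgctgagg
The 200 bases of Col5a3 held 1 CCAAT, found in 28.4% of the 32851 promoters searched over the same window, and 1 GGGCGG, found in 24.6%. The 250 bases of Col3a1 held 1 TATAAA, found in 12.4% of promoters. A match was counted wherever it lay in the window, whether or not it could act there. The bases nearest the Col5a3 start were not searched, so the 2 windows cannot be compared for TATAAA. The response element and its core had no match in either window, where 0.828% and 12.7% of promoters matched in the shorter window and 1.55% and 17.8% in the longer one. The base composition differed, with 58.0% G and C in the Col5a3 window and 35.2% in that of Col3a1.

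The other fibrillar chains tested lay below WT in DNAJ-PKAc A and B, and only Col5a2 among them did so in C too. Col3a1 (chromosome 1, 45311538 to 45349706) gave 4219, 4776 and 5732 CPM in WT, compared with 1000, 952 and 4890 CPM in DNAJ-PKAc. DNAJ-PKAc C lay within the WT range, and the log2 difference of -1.11 (SE 0.64) missed the threshold (edgeR adjusted p = 0.338). Col5a1, the alpha-1 chain of type V collagen, stood at 160, 262 and 277 CPM in WT against 63.2, 61.9 and 335 CPM in DNAJ-PKAc. Its DNAJ-PKAc C value was the highest of the 6 libraries, and the log2 difference was -0.60 (SE 0.67, edgeR adjusted p = 0.615). Col3a1 and Col5a1 share exon bases with other annotated genes, and no source used here says whether reads were counted by strand, so some of their reads could be shared. Col5a2, the alpha-2 chain with the tightest WT values of the class, had WT levels of 730, 743 and 775 CPM and DNAJ-PKAc levels of 347, 332 and 622 CPM. All DNAJ-PKAc libraries lay below all WT libraries, with a log2 difference of -0.79 (SE 0.26) that missed the threshold in edgeR (adjusted p = 0.161) and passed it in DESeq2.

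The chains of type I collagen, the main fibril collagen of connective tissue, were uneven in level and in how they varied. Col1a2 (chromosome 6, 4505618 to 4541543) gave 5910, 7954 and 6538 CPM in WT, compared with 3452, 3256 and 11135 CPM in DNAJ-PKAc. DNAJ-PKAc A and B lay below all WT libraries and C above them, and the log2 difference was -0.19 (SE 0.48, edgeR adjusted p = 0.839). Col1a1 (chromosome 11, 94936224 to 94953042) stood at 195, 516 and 284 CPM in WT against 76.3, 66.4 and 461 CPM in DNAJ-PKAc, a log2 difference of -0.72 (SE 0.78, edgeR adjusted p = 0.605). Its highest value was in WT B and the next in DNAJ-PKAc C.

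Type I collagen is usually built with more alpha-1 than alpha-2 chains, yet Col1a1 RNA was below Col1a2 RNA in every library. The ratio of Col1a1 to Col1a2, both per kb, was 0.0297, 0.0585 and 0.0391 for WT and 0.0199, 0.0184 and 0.0373 for DNAJ-PKAc. Col1a2 was thus 17.1 to 33.6 times Col1a1 in WT, 50.2 and 54.3 times in DNAJ-PKAc A and B and 26.8 times in C. With the length of all annotated exons instead, an alternative added after the data were seen, the mean ratio was 0.0891 in WT and 0.0530 in DNAJ-PKAc, in place of 0.0424 and 0.0252, and still below 1. Among type V chains, Col5a1 was at 0.173 to 0.282 of Col5a2 in WT, at 0.144 and 0.147 in DNAJ-PKAc A and B and at 0.425 in C. The ratio of Col5a3 to Col5a1 was 4.02, 3.40 and 2.25 in WT, 4.02 and 3.68 in DNAJ-PKAc A and B and 0.723 in C. In DNAJ-PKAc C alone Col5a1 was above Col5a3.

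**Figure D2:**
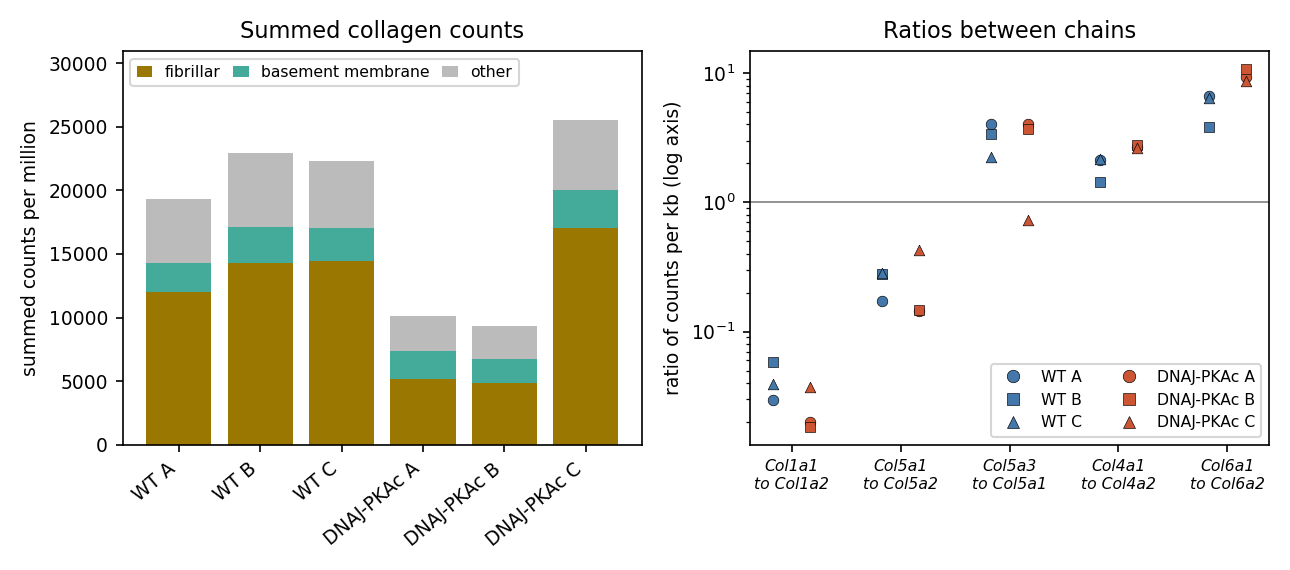
Left, summed counts of the chains as CPM by plain library totals, stacked by class. Right, ratios of counts per kb between chains on a log axis, WT in blue and DNAJ-PKAc in red, with a line at 1. The sums run from 9324 in DNAJ-PKAc B to 25563 in DNAJ-PKAc C, and Col1a1 lies at 0.0184 to 0.0585 of Col1a2 over the 6 libraries.

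Type IV chains form the basement membrane network, with Col4a1 and Col4a2 as the chains of its common trimer, encoded head to head on chromosome 8. Col4a1 (11198423 to 11312889) had WT levels of 1365, 1652 and 1590 CPM and DNAJ-PKAc levels of 1528, 1399 and 2197 CPM. The groups overlapped, with a log2 difference of 0.15 (SE 0.22, edgeR adjusted p = 0.699) whose sign turned without DNAJ-PKAc C (log2 -0.07). Col4a2 (11312805 to 11449287) gave 627, 1127 and 721 CPM in WT, compared with 559, 491 and 809 CPM in DNAJ-PKAc, a log2 difference of -0.41 (SE 0.29, edgeR adjusted p = 0.419). The gene models share exon bases at their starts. Per kb, Col4a1 was 2.12, 1.43 and 2.15 times Col4a2 in WT and 2.66, 2.78 and 2.65 times in DNAJ-PKAc, without overlap between the groups. DNAJ-PKAc C lay close to A and B in this ratio. None of the ratios was tested.

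Col4a5 encodes a chain of the specialised type IV network of kidney and other basement membranes, where it pairs with Col4a3 and Col4a4 or with Col4a6. Col4a5 (chromosome X, 141475370 to 141689236) stood at 177, 181 and 206 CPM in WT against 28.2, 28.4 and 95.0 CPM in DNAJ-PKAc. Every DNAJ-PKAc library lay below every WT library, and the log2 difference of -1.90 (SE 0.49) missed the threshold in edgeR (adjusted p = 0.0931) and passed it in DESeq2. Its partner chains were nearly absent, with 7 counts of Col4a3 over all libraries and none of Col4a4 or Col4a6.

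Among the other chains, type VI collagen forms beaded filaments around cells from an alpha-1, an alpha-2 and an alpha-3 chain. Col6a1 (chromosome 10, 76708792 to 76726044) had WT levels of 67.4, 76.0 and 93.0 CPM and DNAJ-PKAc levels of 159, 149 and 564 CPM. All DNAJ-PKAc libraries were above all WT libraries, C by far the highest, and the fitted difference of 1.88 on the log2 scale (SE 0.53, 3.69-fold) missed the threshold in edgeR (adjusted p = 0.118) and passed it in DESeq2. Col6a2 gave 11.5, 22.8 and 16.6 CPM in WT, compared with 19.5, 15.7 and 74.1 CPM in DNAJ-PKAc, where A and B lay within the WT range, with a log2 difference of 1.10 (SE 0.61, edgeR adjusted p = 0.322). Col6a3, the chain completing the usual trimer, had 1, 5 and 2 counts in WT and 1, 0 and 1 counts in DNAJ-PKAc, below the count filter. The related Col6a4 had 26 counts in all. Col6a1 per kb was 6.65, 3.79 and 6.37 times Col6a2 in WT and 9.24, 10.8 and 8.64 times in DNAJ-PKAc, again without overlap. With the length of all annotated exons the means were 9.38 and 16.0, in place of 5.60 and 9.56.

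Col18a1 (chromosome 10, 77052178 to 77166530) stood at 4429, 5443 and 4638 CPM in WT against 2243, 2069 and 4537 CPM in DNAJ-PKAc. DNAJ-PKAc C lay within the WT range, and the log2 difference was -0.71 (SE 0.32, edgeR adjusted p = 0.249). Col16a1, of the class that attaches to fibrils, had WT levels of 250, 335 and 260 CPM and DNAJ-PKAc levels of 165, 151 and 334 CPM (log2 -0.38, SE 0.32, edgeR adjusted p = 0.510). Again A and B were below WT and C was not. Col8a1, a short chain of sheet-like networks in vessel walls and the cornea, gave 126, 144 and 71.9 CPM in WT, compared with 154, 165 and 158 CPM in DNAJ-PKAc (log2 0.48, SE 0.26, edgeR adjusted p = 0.312). It was close to equal in the 3 DNAJ-PKAc libraries, which all lay above WT.

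The remaining chains were low. Col12a1, a fibril-associated chain, stood at 5.04, 9.45 and 5.08 CPM in WT against 1.29, 1.36 and 2.80 CPM in DNAJ-PKAc. All DNAJ-PKAc libraries lay below WT, with a log2 difference of -1.84 (SE 0.44) that missed the threshold in edgeR (adjusted p = 0.0784) and passed it in DESeq2. Col7a1, which makes the anchoring fibrils beneath epithelia, had WT levels of 28.5, 57.6 and 23.8 CPM and DNAJ-PKAc levels of 14.0, 14.6 and 25.1 CPM (log2 -1.04, SE 0.40, edgeR adjusted p = 0.202). Its WT B value was the highest and DNAJ-PKAc C lay inside the WT range. Col20a1 and Col10a1 stayed at or under 9.50 and 1.75 CPM with log2 differences of -0.10 (SE 0.58, edgeR adjusted p = 0.933) and -0.32 (SE 0.47, adjusted p = 0.717), and both share exon bases with another gene. The cartilage chains Col9a3 and Col27a1 had 24 and 15 counts over all libraries, and Col17a1, a hemidesmosome component, had 18. Col27a1 had 13 of its counts spread over the 3 WT libraries.

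**Figure D3:**
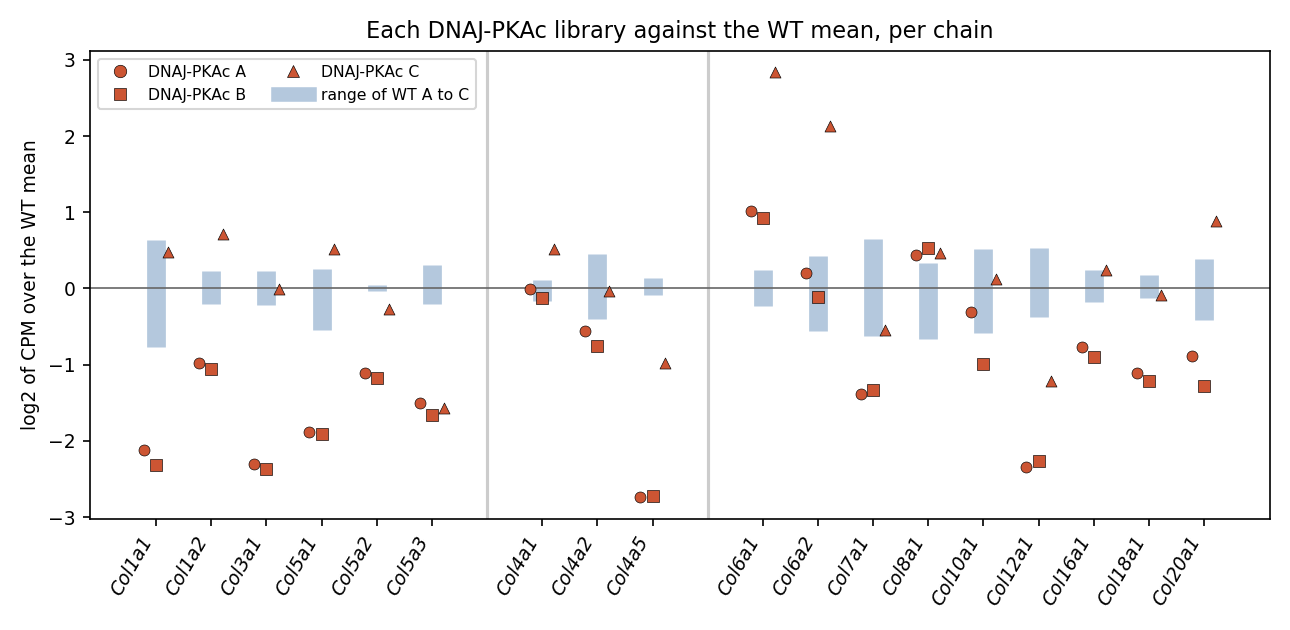
Log2 of CPM in each DNAJ-PKAc library over the WT mean (red markers) for the 18 chains tested, grouped as fibrillar, basement membrane and other from left to right, with the range of the WT libraries as blue bars. A and B lie below every WT library in 13 chains, all 6 fibrillar ones among them, while C lies above every WT library in 7, within their range in 7 and below them in 4.

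DNAJ-PKAc A and B lay below all WT libraries in 13 of the 18 chains, 72.2%, as they did in 28.4% of all genes tested, and above all WT libraries in 2, 11.1%, against 32.5% of all genes. DNAJ-PKAc C lay above, within and below the WT range in 38.9%, 38.9% and 22.2% of the chains and in 34.9%, 35.6% and 29.5% of all genes, shares close to each other. DNAJ-PKAc C was higher than A and B in 16 of the 18 chains, 88.9%, as it was in 47.2% of all genes. The 2 chains in which C was not the highest of the DNAJ-PKAc libraries were Col5a3 and Col8a1. The median log2 value against the WT mean over the DNAJ-PKAc libraries was -1.69, -1.79 and 0.24 for fibrillar chains, -0.56, -0.75 and -0.03 for basement membrane chains and -0.77, -0.90 and 0.24 for the other chains, beside -0.01, 0.00 and 0.02 over all genes tested.

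Without DNAJ-PKAc C, 1 chain rose and 10 fell, where 25.3% of all genes tested were called, 14.3% as higher and 11.0% as lower. The chain that rose was Col6a1 (log2 0.97, edgeR adjusted p = 0.00852). Those that fell were Col4a5 (log2 -2.73, edgeR adjusted p = 0.000448), Col3a1 (-2.33, 0.000831), Col1a1 (-2.21, 0.0153), Col5a1 (-1.90, 0.00399), Col18a1 (-1.16, 0.00492), Col5a2 (-1.14, 0.00230) and Col1a2 (-1.02, 0.0108), together with Col5a3, Col12a1 and Col16a1. All 6 fibrillar chains tested were thus lower in that fit, and Col4a1, Col4a2, Col6a2, Col7a1, Col8a1, Col10a1 and Col20a1 did not pass. Without WT B as well, 1 chain rose and 13 fell, where 48.5% of all genes were called, 23.9% as higher and 24.5% as lower. By construction, these fits leave out the libraries that lay farthest from the rest of their groups.

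Genes that make, trim, partner, sense or degrade collagen, and genes of TGF-beta input and promoter factors, were read from 6 lists. The lists held 96 genes, of which 76 were tested. Of these 1 rose and 5 fell in edgeR, against 1.37% and 2.14% of all genes. A log2 difference below 0 was found in 50 of the 76 and in 46.1% of all genes tested, with medians of -0.26 and 0.05. At an unadjusted p under 0.05 there were 5 higher and 17 lower, where 21.5% of all genes passed, 1296 of 10975 as higher and 1067 as lower. DESeq2 called 2 higher and 11 lower, where it called 3.17% and 5.71% of all genes, and limma-voom 1 and 5, where it called 1.29% and 2.27%. Without DNAJ-PKAc C 4 rose and 30 fell, against 14.3% and 11.0% of all genes.

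The list of hydroxylases, glycosylation enzymes, chaperones and related genes of procollagen gave 3 of the decreases among 18 tested genes. Of these 18, 15 had a log2 difference below 0. In edgeR, in DESeq2, in limma-voom or at an unadjusted p under 0.05, 0 rose. Over all genes tested, 46.1% had a log2 difference below 0 and edgeR called 2.14% as lower. Higher calls were 1.37% in edgeR, 3.17% in DESeq2 and 1.29% in limma-voom. Unadjusted, 21.5% passed in either direction, 1296 of the 10975 genes as higher. Without DNAJ-PKAc C 0 of the list rose and 9 fell, against 14.3% and 11.0% of all genes. P4ha2, a catalytic subunit of the prolyl hydroxylase that stabilises the triple helix, gave 80.8, 80.4 and 74.0 CPM in WT, compared with 30.1, 24.2 and 31.1 CPM in DNAJ-PKAc (fell 2.75-fold, log2 -1.46, SE 0.16, edgeR adjusted p = 0.00753). Plod2, the lysyl hydroxylase of the telopeptides, stood at 191, 174 and 179 CPM in WT against 61.4, 63.4 and 87.9 CPM in DNAJ-PKAc (fell 2.57-fold, edgeR adjusted p = 0.0137). P4hb, the partner subunit of the prolyl hydroxylase and a disulfide isomerase, had WT levels of 1487, 1244 and 1424 CPM and DNAJ-PKAc levels of 808, 834 and 668 CPM (fell 1.80-fold, edgeR adjusted p = 0.0427). In each of these genes DNAJ-PKAc C lay with A and B below all WT libraries, unlike in Col1a1, Col1a2, Col3a1 and Col5a1. They were named because they passed a test that favours agreement within groups, so the contrast does not extend to the list. Leprel2 of the same list was split, at 111, 125 and 109 CPM in WT and 80.2, 80.5 and 148 CPM in DNAJ-PKAc.

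In the list of propeptide cleavage and cross-linking, 0 of 10 rose and 1 fell in edgeR. At an unadjusted p under 0.05 there were 0 higher and 4 lower, and in DESeq2 0 higher and 3 lower. Without DNAJ-PKAc C 0 of the list rose and 5 fell. Beside this list and those that follow, edgeR called 1.37% of all genes as higher and 2.14% as lower. DESeq2 called 3.17% and 5.71%, and 21.5% of all genes passed unadjusted in either direction, 1296 genes as higher and 1067 as lower. Without DNAJ-PKAc C edgeR called 14.3% as higher and 11.0% as lower. Adamts14, a protease that removes the N-propeptide of fibrillar procollagen, gave 124, 190 and 159 CPM in WT, compared with 55.1, 52.5 and 42.2 CPM in DNAJ-PKAc (fell 3.15-fold, edgeR adjusted p = 0.0106). The 3 DNAJ-PKAc libraries lay together below WT. Among 7 tested degrading enzymes 0 rose and 1 fell in edgeR and in DESeq2, with 1 higher and 2 lower at an unadjusted p under 0.05. Without DNAJ-PKAc C 0 rose and 2 fell. The one that fell in edgeR with all libraries was Mmp9, a gelatinase that also cleaves type IV collagen. It stood at 108, 133 and 126 CPM in WT against 40.2, 35.0 and 41.2 CPM in DNAJ-PKAc (fell 3.15-fold, log2 -1.66, SE 0.16, edgeR adjusted p = 0.00458). Among 12 tested fibril and network partners 1 rose and 0 fell in edgeR, 1 and 1 in DESeq2, and 2 and 1 at an unadjusted p under 0.05. Without DNAJ-PKAc C 1 rose and 7 fell, the latter Dcn, Bgn, Ogn, Fn1, Postn, Fbn1 and Matn2. The gene that rose was the thrombospondin gene Thbs1, which had WT levels of 3.62, 7.12 and 4.86 CPM and DNAJ-PKAc levels of 25.5, 24.9 and 73.1 CPM (rose 7.91-fold, log2 2.98, edgeR adjusted p = 0.0289). Without DNAJ-PKAc C its log2 difference was 2.28. Of the listed genes called in edgeR with all libraries, P4ha2 and Mmp9 passed whichever library was left out. P4hb and Thbs1 passed only with all libraries or without DNAJ-PKAc C (edgeR adjusted p up to 0.186 and 0.130 otherwise). Plod2 missed the threshold when replicate A of either group, WT C or DNAJ-PKAc B was omitted (up to 0.0824), and Adamts14 missed it when WT C or either of DNAJ-PKAc A and B was omitted (up to 0.0592).

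**Figure D4:**
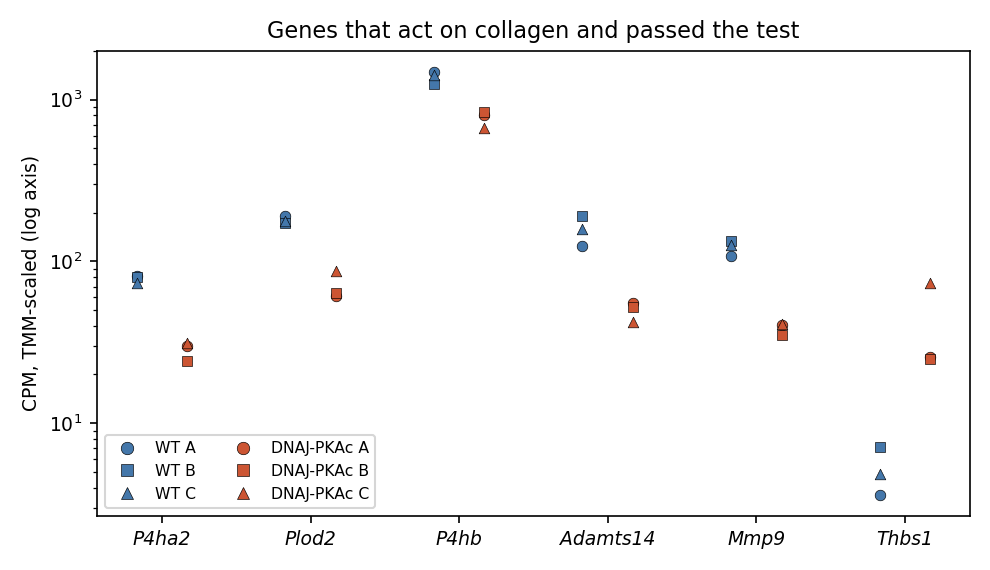
TMM-scaled CPM (log axis) in each library of the 6 listed genes acting on collagen that passed the test, WT in blue and DNAJ-PKAc in red. The 3 DNAJ-PKAc libraries lie together below WT for P4ha2, Plod2, P4hb, Adamts14 and Mmp9 and above WT for Thbs1, with C highest at 73.1 CPM.

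No collagen receptor passed in edgeR among 7 tested, while 2 were lower at an unadjusted p under 0.05, DESeq2 called 1 lower and limma-voom 0. With quality weights 4 were lower, where 21.1% of all genes were, and 4 fell without DNAJ-PKAc C, where 11.0% of all genes did. The integrin subunit gene Itga10 had the smallest adjusted p, at 5.26, 5.72 and 7.51 CPM in WT and 0.693, 0.247 and 3.29 CPM in DNAJ-PKAc (log2 -2.13, SE 0.73, edgeR adjusted p = 0.168; log2 -3.62, adjusted p = 0.00257 without DNAJ-PKAc C), followed by Itga1, another collagen-binding integrin subunit (log2 -0.58, SE 0.21, adjusted p = 0.181). Of 22 tested genes of TGF-beta input and promoter factors 0 passed in edgeR, while 2 were higher and 3 lower at an unadjusted p under 0.05. DESeq2 called 1 higher and 2 lower, where it called 8.88% of all genes, and limma-voom 0. With quality weights 4 were higher and 7 lower, where 46.2% of all genes were called, a share close to that of the list. Without DNAJ-PKAc C 3 rose and 3 fell, where 14.3% and 11.0% of all genes did. Ctgf, a TGF-beta and mechanical response gene, gave 3.07, 1.87 and 1.66 CPM in WT, compared with 11.8, 11.7 and 57.0 CPM in DNAJ-PKAc, just short of the threshold (log2 3.60, SE 0.74, edgeR adjusted p = 0.0501). Without DNAJ-PKAc C its log2 difference was 2.41 and passed (adjusted p = 0.00248). It was highest in DNAJ-PKAc C, as were Thbs1, Col6a1 and other chains, among them Col1a2, Col4a1 and Col5a1. Sox9, a factor that drives cartilage collagen genes, stood at 19.7, 56.0 and 21.4 CPM in WT against 10.2, 11.9 and 8.53 CPM in DNAJ-PKAc (log2 -1.67, SE 0.43, edgeR adjusted p = 0.0955). Among the fibroblast and smooth muscle markers, the actin gene Acta2 rose 4.55-fold (10.5, 10.2 and 7.18 CPM in WT against 35.4, 34.7 and 56.7 CPM in DNAJ-PKAc, edgeR adjusted p = 0.0102, a call lost without any 1 of the WT libraries, with adjusted p up to 0.0569), the other direction from Col1a1, Col1a2 and Col3a1 in DNAJ-PKAc A and B. The receptor genes of that list were split as Col1a1, Col1a2, Col3a1 and Col5a1 were, but not Col5a2 or Col5a3. Pdgfra was at 133, 212 and 146 CPM in WT and 73.0, 69.4 and 170 CPM in DNAJ-PKAc. Pdgfrb was at 153, 235 and 205 CPM against 94.9, 90.0 and 347 CPM. The part of these markers in the collagen results was not tested.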

How the data were processed

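Total RNA from 3 WT and 3 DNAJ-PKAc libraries was made into stranded libraries, per the labels' protocols. The authors deposited 1 table of expected counts by gene symbol, without normalization, per the file headers. The submitters' processing notes list STAR 2.5.2b, RSEM 1.3.0 and mm10 but no roles. No source used here gives the annotation or the strand setting.

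Counts were rounded, genes kept by filterByExpr (minimum count 10; 10975 of 24054), scaled by TMM and tested by edgeR 4.0.16 (R 4.3.3), quasi-likelihood, robust, group as the only term, 2-sided, Benjamini-Hochberg over all genes tested, threshold 0.05. SE is the log2 difference over the root of F. The smallest library has 8095548 counts. Lengths are from GENCODE M21 and gene coordinates from RefSeq GRCm38.p6. The tests were tested on simulated counts, in which DESeq2 called more unchanged genes than edgeR. Alternatives were other scalings, filters, DESeq2 1.42.0, limma-voom (limma 3.58.1), left-out libraries and a replicate block.

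Chains were named in full if called, among the 3 highest per length of their class, or sharing a trimer with these; further ones, Col3a1's promoter and the proliferation list were chosen after values were seen. The members and lists were chosen with earlier results of these data known.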

Additional observations from a re-analysis of the deposited data

How the results depend on the processing

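With all 6 libraries 0 chains rose, 1 fell and 6 of the listed partner genes changed. RLE and upper-quartile scaling, no filter, a filter of 1 CPM in 3 libraries, plain limma-voom and dispersions without the robust option left the chain calls at 0 and 1. DESeq2 gave 1 higher and 4 lower chains and 13 partner genes. With library quality weights limma-voom gave 2, 13 and 47, and the 4 libraries other than WT B and DNAJ-PKAc C gave 1, 13 and 53. In that order these fits called 8.88%, 46.2% and 48.5% of all genes, against 3.51% in edgeR with all 6 libraries. A threshold of 0.01 left 2 partner genes. Leaving out each library in turn gave 0 to 1 higher chains, 0 to 10 lower chains and 2 to 34 partner genes. The upper ends came without DNAJ-PKAc C, where 25.3% of all genes were called. Signs turned for chains that were not called: Col1a2 ran from -1.02 to 0.10, Col4a1 from -0.07 to 0.28, Col10a1 from -0.58 to 0.03 and Col20a1 from -1.05 to 0.26 with 1 library left out, and Col4a1 was at -0.01 with quality weights and at -0.06 in those 4 libraries. The causes were not tested. Summed collagen in WT was 14728 CPM without Col1a2, an alternative added after the data were seen, in place of 21541, and in DNAJ-PKAc 9165 CPM in place of 15007.

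Between libraries of the same letter, the correlation of deviations from the group mean was 0.211, -0.198 and 0.0282 for A, B and C. With each mean taken over 3 libraries, these values cannot show whether the letters pair the libraries. With the replicate block 1 chain fell and 0 rose.

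Limits. With 3 libraries a group, 5 chains were removed by the count filter. With no filter, where all 23 were tested, 0 rose and 1 fell. The part of the split within DNAJ-PKAc in the error of each chain was not tested. Levels per length depend on the transcript model.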
